A study of Homo sapiens with 19 samples.

Results

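The genes examined were 9 genes used as markers of trophoblast or amnion in human embryonic stem cells (hESCs) exposed to BMP4: the transcription factors GATA2, GATA3, TFAP2A, TFAP2C, CDX2, HAND1 and ISL1, the keratin KRT7, and CGA, the hormone subunit of the list. They were taken by name, as the probes whose RefSeq transcript maps to these symbols, and make up 9 of the 20503 genes matched to a probe. Each of the 9 had 1 probe. The cells were KhES-3, a hESC line, taken to brown adipocytes (BAs) in low-attachment dishes. All samples shared 1 serum-free medium with BMP4, IGF-II, VEGFA, KITLG, FLT3LG and IL-6, and 1 sample was harvested at each of 19 times after induction, every 1 to 2 h from 3 to 16 h, every 4 h from 16 to 36 h and every 6 h from 36 to 72 h. RNA was labelled with Cy3 and hybridized to one-colour Agilent human arrays. No time point was replicated, and no sample from before induction or without BMP4 was analysed here, so an effect of BMP4 cannot be told apart from the passage of time or from the other factors. The labels describe stem cell culture on irradiated mouse fibroblasts, whereas the methods of the study describe feeder-free culture.

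BMPs are secreted signals that act through receptor kinases, which phosphorylate SMAD1, SMAD5 and SMAD9. The SMADs then switch on early targets such as the ID genes and the inhibitory SMADs, which damp the same signal. In hESCs, BMP4 given without signals that hold pluripotency is known to raise GATA2, GATA3, TFAP2A and TFAP2C, which act together in the trophectoderm, the outer layer of the blastocyst. Later markers separate syncytiotrophoblast, the hormone-secreting layer of the placenta, from amnion, the membrane around the embryo, and ISL1 and HAND1 are shared with amnion and lateral mesoderm.

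Signals are given as processed intensities scaled so that the 75th percentile of every array is 871, and differences are on the log2 scale of the same values. A spot is called well above background by the flag of the scanner software. The 75th percentile before scaling was 655 to 1003, and 49.6% to 64.7% of spots were well above background, with the lowest shares at 14, 16 and 72 h. Scaling made the lowest signal that could be called well above background unequal among arrays, from 19.7 at 54 h to 73.5 at 14 h, with 53.7 at 16 h and 52.4 at 72 h. The arrays lay on 3 slides, with 6 arrays from 3 to 12 h, 8 arrays from 14 to 42 h and 5 arrays from 48 to 72 h. Of the 3, slides 1 and 2 were scanned on one day and slide 3 on a later one. Levels of different genes come from different probes and are not set against each other.

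In GRCh38.p14 the genes lie at chr3:128479422-128493201 (GATA2), chr10:8045333-8075198 (GATA3), chr6:10396677-10419659 (TFAP2A), chr20:56629306-56639283 (TFAP2C), chr13:27960918-27969315 (CDX2), chr5:154474972-154478227 (HAND1), chr5:51383448-51394730 (ISL1), chr12:52233243-52255853 (KRT7) and chr6:87085498-87095106 (CGA). The probes name the transcripts NM_001145661, NM_001002295, NM_001032280, NM_003222, NM_001265, NM_004821, NM_002202, NM_005556 and NM_000735 in the same order. The place of a probe within its transcript is not given in the sources used here.

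Promoter sequence was at hand in RefSeq (GRCh38.p14) for 7 of the 9 genes, and it is shown for GATA2, GATA3 and HAND1, the genes whose signal fell within the first 12 h, and for CGA, whose signal first appeared later. Each line is the 250 bases before the outermost start of the gene, 5' to 3' on the strand of the gene, and capitals mark the motifs searched for on both strands.
GATA2 promoter, chr3:128493202-128493451, minus strand: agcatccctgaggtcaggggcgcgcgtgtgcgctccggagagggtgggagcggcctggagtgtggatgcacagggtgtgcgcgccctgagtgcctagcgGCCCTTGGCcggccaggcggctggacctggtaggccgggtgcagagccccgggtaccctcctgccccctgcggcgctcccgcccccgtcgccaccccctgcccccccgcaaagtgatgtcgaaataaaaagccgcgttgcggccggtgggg
GATA3 promoter, chr10:8045083-8045332, plus strand: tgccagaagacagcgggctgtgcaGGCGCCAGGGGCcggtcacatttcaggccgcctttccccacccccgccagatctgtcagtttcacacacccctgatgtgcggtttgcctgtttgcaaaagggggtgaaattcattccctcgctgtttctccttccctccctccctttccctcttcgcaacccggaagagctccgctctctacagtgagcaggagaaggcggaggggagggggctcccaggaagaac
HAND1 promoter, chr5:154478228-154478477, minus strand: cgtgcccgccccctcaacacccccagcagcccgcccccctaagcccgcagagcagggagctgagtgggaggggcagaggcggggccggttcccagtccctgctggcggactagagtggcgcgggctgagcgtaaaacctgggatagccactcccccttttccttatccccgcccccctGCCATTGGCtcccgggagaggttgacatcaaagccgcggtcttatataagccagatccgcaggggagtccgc
CGA promoter, chr6:87095107-87095356, minus strand: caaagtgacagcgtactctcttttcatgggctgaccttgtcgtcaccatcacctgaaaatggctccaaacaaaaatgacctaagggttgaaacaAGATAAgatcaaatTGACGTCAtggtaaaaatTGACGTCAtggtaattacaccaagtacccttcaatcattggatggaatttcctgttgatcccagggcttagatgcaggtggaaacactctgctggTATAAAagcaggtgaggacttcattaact
Among the motifs, the palindrome GGCGCC is rich in these bases. The core bound by AP-2 factors such as TFAP2A and TFAP2C is GCCNNNGGC, and that bound by GATA factors is AGATAA. The cyclic AMP response element is TGACGTCA and the letters TATAAA mark a TATA box. GGCGCC and GCCNNNGGC can overlap, and did so in the GATA3 promoter. Of 35116 promoters of the same length, 16.4% held GGCGCC, 19.8% GCCNNNGGC, 9.17% AGATAA, 1.65% TGACGTCA and 10.7% TATAAA. GCCNNNGGC was found once each in the promoters of GATA2, GATA3 and HAND1. The CGA promoter held 2 copies of TGACGTCA, 1 of AGATAA and 1 of TATAAA, and the promoters of CDX2 and ISL1 held 1 AGATAA each. The bases G and C made up 72.8%, 60.8% and 67.2% of the GATA2, GATA3 and HAND1 promoters and 42.0% of the CGA promoter, beside a median of 58.0% over all promoters. These are matches of letters, and binding was not measured.

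Over all 9 genes, the arrays did not show a common rise. As straight lines in time, HAND1, CGA and KRT7 rose and TFAP2C and CDX2 fell, while GATA2, GATA3, TFAP2A and ISL1 did not pass the test (limma, Benjamini-Hochberg adjusted p under 0.05 over all 32113 probes tested). The 3 genes called above 0 stand beside 30.9% of all probes tested and the 2 called below 0 beside 22.4%, so the shares of the 9 genes were near the background. The median slope was 0.0044 log2 per hour over the 9 genes and 0.0024 over all probes. Because each slide holds a separate span of time, slopes were fitted once more with a block for each slide. No gene of the 9 was then called in either direction (1 in each direction at an unadjusted p under 0.05), beside 4.71% of all probes above 0 and 4.47% below 0.

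**Figure D1:**
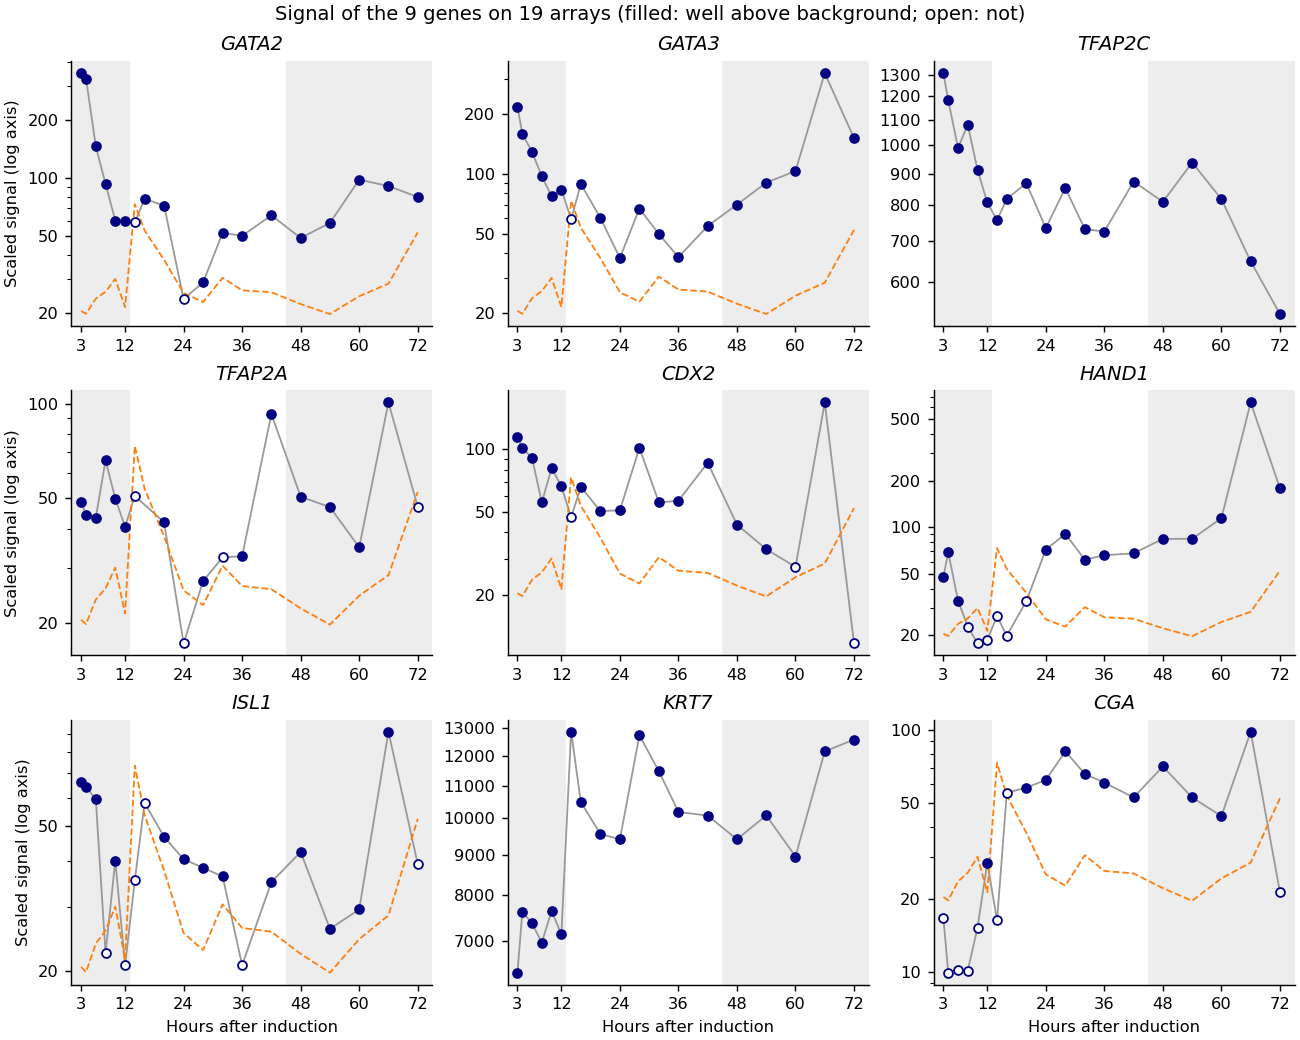
Scaled signal (log axis, a different range in each panel) of the 9 genes against hours after induction, 1 point per array. Filled points were well above background and open points were not, the dashed line is the lowest signal well above background on each array (left out for TFAP2C and KRT7), and grey bands mark slides 1 and 3. GATA2 and GATA3 started high and dropped within 12 h, CGA was first well above background at 12 h, and 6 of the 9 genes had their highest value at 66 h.

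The change over time was largely not a straight line. A cubic polynomial in hours fitted better than a constant for 6 of the 9 genes, GATA2, GATA3, TFAP2C, HAND1, KRT7 and CGA, beside 76.8% of all probes tested. With the slide as a block the call remained for GATA2, GATA3 and TFAP2C, with limma adjusted p of 0.00051, 0.013 and 0.0026, beside 31.6% of all probes. The calls of these 3 genes thus did not rest on differences between slides alone. The share of the 9 genes called was near the background in both fits.

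GATA2 and GATA3, zinc finger factors of trophectoderm, had their highest signals at 3 h (GATA2) and 66 h (GATA3). GATA2 had signals of 352, 330, 147, 93.4, 60.4 and 60.2 at 3, 4, 6, 8, 10 and 12 h. Every later array of the first slide was lower than the one before it. Within that slide its slope was -0.32 ± 0.036 log2 per hour (SE, 6 arrays, limma adjusted p = 0.022). On the second slide GATA2 lay between 23.7 at 24 h and 78.3 at 16 h, and it was not well above background at 14 and 24 h. It was 98.4, 91.2 and 80.0 at 60, 66 and 72 h. The mean of log2 signal at 24, 28 and 32 h (the mid window) minus that at 3, 4 and 6 h (the early window) was -2.97, a 7.82-fold difference with 2 of the 3 mid arrays well above background, and 0.0156% of all probes tested had a lower one. At 60, 66 and 72 h (the late window) the mean was 1.45 above the mid window, and its difference from the early window was -1.52. Without 66 h the last difference was -1.54.

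GATA3 followed the same course at first. Its signal was 218, 159, 129, 97.4, 77.3 and 83.6 at 3, 4, 6, 8, 10 and 12 h, with a slope within the first slide of -0.16 ± 0.024 (SE, 6 arrays, limma adjusted p = 0.033). The lowest values were 37.8 at 24 h and 38.2 at 36 h. Each value from 42 to 66 h was above the one before it, with 70.2, 90.5, 104, 322 and 152 at 48, 54, 60, 66 and 72 h. The slope within the third slide was 0.068 ± 0.026 and did not pass the test (5 arrays, limma adjusted p = 0.18), and without 66 h it was 0.045 ± 0.0062 (4 arrays, limma adjusted p = 0.087). The difference of the mid window from the early one was -1.72 on the log2 scale, and the late window differed from the early one by 0.057, or by -0.40 without 66 h. A straight line over all 19 arrays therefore gave GATA3 a slope of 0.0044 (limma adjusted p = 0.68), which hides the early drop and the higher late values. The return to the early level rested on the 66 h array.

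Of the 9 genes, GATA2, GATA3 and HAND1 were called below 0 within the first slide, beside 2.4% of all probes tested, and none above 0, beside 2.25% of all probes. TFAP2C missed the threshold there (slope -0.068 ± 0.013, limma adjusted p = 0.051), as did ISL1 (-0.18 ± 0.051, adjusted p = 0.10) and CDX2 (-0.084 ± 0.031, adjusted p = 0.18). The slopes of TFAP2A, KRT7 and CGA were -0.0031, 0.0093 and 0.097 with adjusted p of 0.96, 0.73 and 0.37. Within the second slide no gene was called (1 above 0 and 0 below at an unadjusted p under 0.05), beside 4.09% of all probes above 0 and 2.45% below. Within the third none was called (1 above 0 and 1 below at an unadjusted p under 0.05), beside 0.352% and 0.691% of all probes.

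Of 13 early targets of BMP signalling, 12 were tested, and 7 of the 12 were called below 0 within the first slide, beside 2.4% of all probes: ID1, ID3, ID4, SMAD6, SMAD7, BAMBI and DLX5 (ID1, BAMBI and DLX5 are named for this count, after their values were seen). None was called above 0, and the other 5 did not pass the test, with slopes of 0.041 for SMAD9 and -0.030 for MSX1 (also named after their values were seen). DLX5 was well above background on only 5 of 19 arrays. From 6 to 12 h its signals, 16.8 to 9.85, lay under the lowest signal well above background on each array. The median slope within the slide was -0.11 over the 12 genes and 0.0026 over all probes. ID3, an inhibitor of helix-loop-helix factors, had signals of 22750.2, 4873, 3366 and 7999 at 3, 12, 24 and 72 h. ID4, of the same family, had 8584, 2170, 1446 and 2601 at 3, 12, 28 and 72 h. SMAD7, an inhibitory SMAD, was called below 0 over all arrays, with means of 2866 in the early window and 903 in the late one (log2 difference -1.67, limma adjusted p = 0.0056). SMAD6, also an inhibitory SMAD, was called above 0, from 691 to 1097 (0.67, adjusted p = 0.037). SMAD6 was 346 at 24 h and 1453 at 66 h, and its call as a straight line was lost without the 66 h array (adjusted p = 0.17), without the 72 h array (0.16), by the array median (0.26), by the spike-in RNA (0.43), with a block for each slide (0.57) and under other settings, the 3 to 54 h arrays (slope -0.0051, 0.46) among them. As straight lines over all arrays SMAD6 and SMAD7 were the only genes of the 12 called, and the cubic F test called 9 of the 12, beside 76.8% of all probes. The median difference between the mid and early windows was -1.15 over these genes, beside 0.097 over all probes, and 11 of the 12 were higher in the late window than in the mid one. The early fall was not particular to these genes. Over the other marker lists with more than 1 gene tested, that median ran from -1.22 (4 neural genes) to 0.19 (10 mesoderm genes). It was -1.02 over 7 amnion genes. Within the first slide, 3 of the 7 amnion, 2 of the 4 neural and 2 of the 10 mesoderm genes were called below 0. None of 9 trophectoderm and cytotrophoblast genes was.

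**Figure D2:**
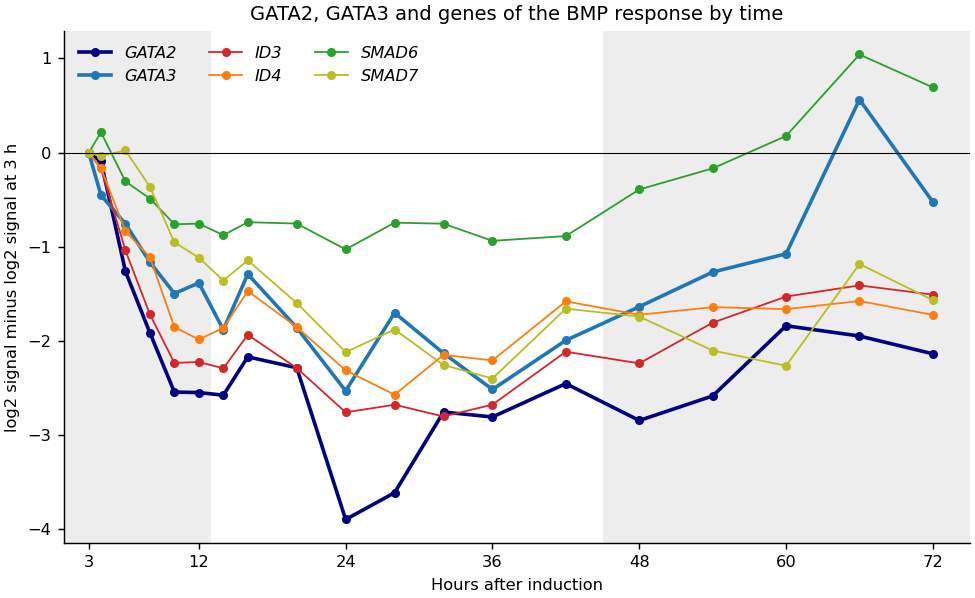
log2 signal minus log2 signal at 3 h against hours after induction for GATA2, GATA3 and 4 genes of the BMP response (ID3, ID4, SMAD6, SMAD7), with grey bands for slides 1 and 3. All 6 genes were below their 3 h value from 8 to 48 h, and GATA2 was lowest at 24 h. ID3 and ID4 were among the 3 genes closest to GATA2 by correlation, so their likeness to it here is no separate result. The 4 genes do not stand for their whole list, in which SMAD9, not drawn, had a slope of 0.041 within slide 1.

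The genes on all 19 arrays whose log2 signal followed GATA2 most closely, out of 13981 genes well above background on every array, were ID4 (Pearson's r = 0.95), ID3 (r = 0.95) and KLHL25 (r = 0.94). For GATA3 they were ZNF320 (r = 0.93), GDAP2 (r = 0.93) and ZNF524 (r = 0.92). GATA2 and GATA3 correlated with each other at r = 0.73, and at r = 0.83 without 66 h. These points share time, slide and array scaling, and the correlations are descriptions. GATA3-AS1, the antisense RNA beside GATA3, was well above background on all 19 arrays, with 192, 127, 63.0 and 359 at 3, 12, 32 and 66 h. Its highest value, 695 at 16 h, stood apart from 104 at 14 h and 111 at 20 h. Its slope was not called (limma adjusted p = 0.90). TFAP2A-AS1 was on no array well above background.

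The AP-2 factors differed from each other. TFAP2C, which is active in trophectoderm and in early germ cells and is also present in hESCs, was well above background on all 19 arrays. It was 1308 at 3 h, 808 at 12 h, between 725 and 873 from 14 to 42 h, and 810, 938, 818, 649 and 533 at 48, 54, 60, 66 and 72 h. The 3 h array was thus the highest and the 72 h array the lowest, with a level stretch between 12 and 60 h. The slope over all arrays was -0.0093 ± 0.0024 log2 per hour (SE, 19 arrays, limma adjusted p = 0.0030) and the late minus early difference was -0.81. The fall lost its call with the slide as a block (-0.013 ± 0.0062, adjusted p = 0.19). Its nearest genes were EXOC2 (r = 0.93), AAMP (r = 0.92) and WDR46 (r = 0.92).

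TFAP2A, which marks surface ectoderm, amnion and trophoblast, was near the detection limit. It was well above background on 14 of 18 arrays, its spot at 16 h being left out by the quality flags. The lowest value was 17.2 at 24 h, the median 45.6 and the highest 101 at 66 h, with 92.9 at 42 h. No test called it, and its slope was 0.0048 ± 0.0061 (18 arrays, limma adjusted p = 0.53), or -0.00054 without 66 h. Its nearest genes reached r = 0.82 (PEX10), 0.79 (PELI3) and 0.78 (TOR1AIP2).

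CDX2, a homeobox factor needed in mouse trophectoderm and active in posterior mesoderm, was well above background on 16 of 19 arrays. It was 115, 102 and 90.7 at 3, 4 and 6 h, 47.3 to 102 from 8 to 42 h, and 43.6, 33.3, 27.4, 168 and 11.8 at 48, 54, 60, 66 and 72 h. The value at 66 h was the highest of all and stood between the lowest, at 72 h, and the next lowest, at 60 h, neither of which was well above background. The slope over all arrays was -0.019 ± 0.0077 (SE, 19 arrays, limma adjusted p = 0.047), and without 66 h it was -0.030 ± 0.0055 (adjusted p = 0.00022). The late minus early difference was -1.43, with 1 of the 3 late arrays well above background. Without 66 h the difference was a nominal bound, at least 2.69-fold lower. The call was lost with a block for each slide (-0.00079, adjusted p = 0.99), with the deposited table (-0.0050, 0.61) and under normexp (-0.0072, 0.10), and also without 72 h (-0.0086, adjusted p = 0.34) and on leaving out any one of 12 other arrays, with adjusted p up to 0.10. Its nearest genes were CCZ1P-OR7E38P (r = 0.81), OTX2 (r = 0.80) and ACADM (r = 0.79).

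HAND1, a helix-loop-helix factor of trophoblast giant cells, extraembryonic mesoderm and heart, showed the largest measured rise of the 9 genes. Its signal was 47.8, 68.9 and 33.6 at 3, 4 and 6 h, and it was not well above background on the 6 arrays from 8 to 20 h (17.8 to 33.3). It then held between 61.7 and 90.6 from 24 to 54 h and was 115, 641 and 179 at 60, 66 and 72 h. Within the first slide the slope was -0.21 ± 0.039 (SE, 6 arrays, limma adjusted p = 0.049), with the 3 later arrays of that slide below detection. Over all arrays it was 0.046 ± 0.0079 (adjusted p = 8.1e-05), and 0.037 ± 0.0070 without 66 h (adjusted p = 0.00030). The late window was 2.30 above the early one, a 4.92-fold difference, and 99.4% of all probes tested had a lower difference. Without 66 h it was 1.58, or 2.98-fold. A block for each slide gave a slope of 0.054 ± 0.023 (adjusted p = 0.15). The genes most like it were STARD10 (r = 0.92), LRRCC1 (r = 0.91) and FBXL4 (r = 0.91).

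ISL1, a LIM homeobox factor of amnion and of cardiac mesoderm, was well above background on 13 of 19 arrays and no test over all arrays called it. It was 66.2, 64.2 and 59.4 at 3, 4 and 6 h, with a median of 39.4, a lowest value of 20.7 at 12 h and a highest of 91.1 at 66 h. The slope was -0.0018 ± 0.0061 (19 arrays, limma adjusted p = 0.82). The late minus early difference was -0.42, with 2 of the 3 late arrays well above background. ADGRG6 (r = 0.83), NICN1 (r = 0.77) and CHST15 (r = 0.75) followed it most closely.

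KRT7, a keratin of simple epithelia and the usual protein marker of trophoblast in such cultures, was well above background on every array from the first one. It lay between 6379 and 7640.5 on the 6 arrays of the first slide and between 8949 and 12873 on the 13 later ones. These sets did not overlap, and the share of all probes that split likewise was not counted. The step fell between 12 h and 14 h, from 7133 to 12873, which is also the border of the first and second slides. The log2 difference of that step was 0.85, beside a median of -0.066 and a middle 90% of -0.67 to 1.20 over all probes. Within slides the slopes were 0.0093, -0.0038 and 0.018 and none was called. Over all arrays the slope was 0.0088 ± 0.0027 (SE, 19 arrays, limma adjusted p = 0.011) and with the slide as a block 0.0042 ± 0.0052 (adjusted p = 0.66). Slide and time cannot be told apart for this step. RRP7BP (r = 0.96), SYNE1 (r = 0.96) and KIR3DL2 (r = 0.96) were most like it.

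Whether KRT7 rose also rested on the scaling. The late window was 0.65 above the early one by the 75th percentile, 0.27 by the median of each array and -0.00022 by the spike-in RNA, added to each sample in fixed amounts. The median of all probes moved with it, at 0.13, -0.24 and -0.52, so that KRT7 was 0.52 above that median under each of the 3. The slopes called over all probes shifted likewise, from 9926 above and 7207 below 0 to 4678 and 11117 by the array median and 1485 and 11188 by the spike-in RNA. Relative to the median of all probes by the 75th percentile, the late minus early difference was 2.17 for HAND1, 0.15 for TFAP2A and -0.072 for GATA3. It was -0.55 for ISL1, -0.94 for TFAP2C and -1.65 for GATA2. The value of 1.80 for CGA rests on an early window with no array well above background. That of -1.56 for CDX2 rests on a late window with only the 66 h array well above background. Each scaling takes a single value per array from every probe. These relative differences, that of KRT7 included, were therefore bound in advance to match, and moved by at most 0.00013 between the 3 scalings.

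CGA encodes the alpha subunit shared by chorionic gonadotropin and the pituitary glycoprotein hormones. It was not well above background on the 5 arrays from 3 to 10 h, with 9.96 to 16.7, and was first so at 12 h, with 28.3. From 20 to 66 h it was well above background on all 10 arrays, with 44.2 to 98.7, and at 72 h it was 21.4 and not well above background. The spots at 14 and 16 h, at 16.4 and 55.2, were not flagged as well above background either, and with 72 h these are the 3 arrays with the highest detection limit. The slope was 0.030 ± 0.0094 (SE, 19 arrays, limma adjusted p = 0.013). The call was lost with a block for each slide (0.013, adjusted p = 0.74), with the deposited table (0.010, 0.28) and by the spike-in RNA (0.021, 0.11). The mid window was at least 3.27-fold above the early one and the late window, with 2 of its 3 arrays well above background, was at least 2.13-fold above it if the value at 72 h is taken as measured. These bounds set the bright window against the lowest signal well above background on each early array. They are nominal, since a spot without the flag can exceed that signal, as CGA did at 16 h (55.2 beside 53.7). SYT4 (r = 0.91), CAPN6 (r = 0.91) and CEP85L (r = 0.90) were most like CGA.

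On a line in log2 hours, which weights the first hours more, HAND1, KRT7 and CGA were called above 0, beside 32.7% of all probes, and TFAP2C, CDX2 and GATA2 below 0, beside 22.2%. The slope of GATA2 was -0.42 ± 0.13 for each doubling of time (SE, 19 arrays, limma adjusted p = 0.0086). Over the arrays from 3 to 54 h, GATA2 (-0.038 ± 0.013 per hour, adjusted p = 0.027) and GATA3 (-0.024 ± 0.0090, adjusted p = 0.038) were called below 0 along with CDX2, beside 20.6% of all probes, and TFAP2C was not (adjusted p = 0.080). HAND1, KRT7 and CGA were called above 0, beside 29.3%.

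The 66 h array held the highest value of 6 of the 9 genes, TFAP2A, GATA3, CDX2, HAND1, ISL1 and CGA, and 11.03% of all tested probes with a value on every array had their highest value there. From 60 to 66 h the log2 step was 2.49 for HAND1, 1.64 for GATA3, 1.63 for ISL1, 1.54 for TFAP2A and 1.16 for CGA, beside a middle 90% of all probes of -0.62 to 0.75. The values of CDX2 differed by 2.62, but its spot at 60 h was not well above background, so this step was not measured. At 72 h all 6 were lower again, GATA3 with a step of -1.09 and HAND1 with -1.84, while TFAP2A, CDX2, ISL1 and CGA were not well above background there and have no measured step. TFAP2C, GATA2 and KRT7 had steps of -0.34, -0.11 and 0.44 from 60 to 66 h. The peak was not particular to the 9 genes. Of 84 other list genes tested with a value on every array, 19 had their highest value at 66 h, among them 4 of 9 trophectoderm and cytotrophoblast genes, 4 of 10 primitive streak and mesoderm genes and 3 of 12 BMP response genes. With no second array at 66 h, the state of the culture and the state of the array cannot be told apart.

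**Figure D3:**
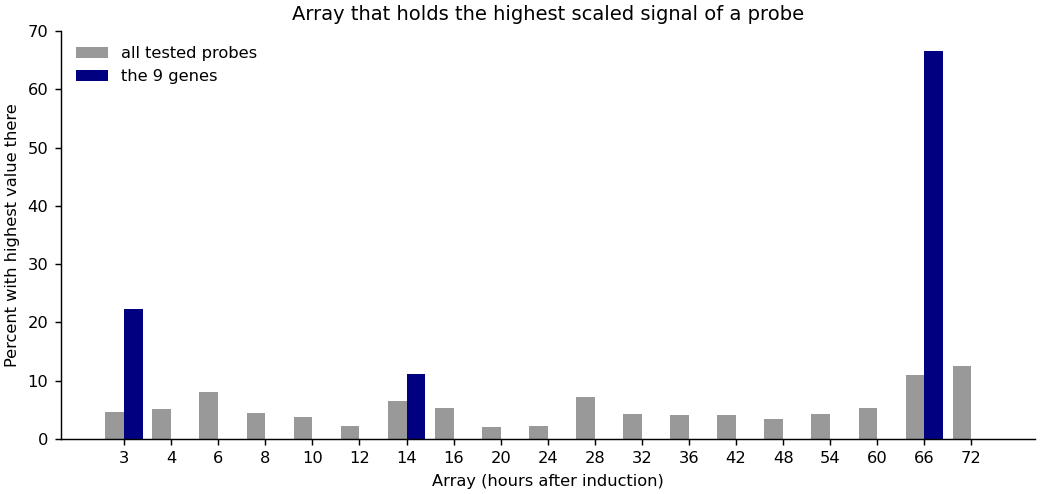
Percent of the 9 genes and of 31999 tested probes whose highest scaled signal fell on each of the 19 arrays. The bar of the 9 genes stands highest at 66 h, where 6 of the 9 peaked, beside 11.03% of all probes.

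Other genes of the same lineages did not move in 1 direction, and their counts stand beside 30.9% of all probes called above 0 and 22.4% below. Of 11 amnion genes, 7 were tested, 1 rose and 2 fell over all arrays, with a median slope of 0.0065. WNT6, a secreted signal, rose from 115 to 219 between the early and late windows (log2 difference 0.92, limma adjusted p = 0.015), with 359 at 66 h, and lost its call without that array. HEY1, a NOTCH and BMP target, fell from 532 to 184 (-1.53, adjusted p = 0.043) and BMP4 transcripts from 463 to 389 (-0.25, adjusted p = 0.049). Of the 11 genes, 5 were well above background on all 19 arrays (GABRP and IGFBP3 among them, neither of which was called), whereas the amnion markers TFAP2B, VTCN1 and ITGB6 were so on 1 array each.

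Of 13 trophectoderm and cytotrophoblast genes, 9 were tested, 4 rose and 2 fell, beside 30.9% and 22.4% of all probes. NR2F2, a nuclear receptor, was called above 0 (limma adjusted p = 0.0030) with 7 arrays well above background, 1 of the 3 early and 2 of the 3 late ones, so no fold is given. PAGE4 rose from 103 to 243 (1.24, adjusted p = 3.8e-06). TEAD3, a DNA-binding partner of YAP, fell from 2631 to 1980 (-0.41, adjusted p = 0.00023). TP63 and VGLL1 were on no array well above background and ELF5 on 1 array.

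Of 22 syncytiotrophoblast and extravillous trophoblast genes, 18 had a probe and 9 were tested, of which 3 rose and 4 fell. CGB3, a chorionic gonadotropin beta subunit and the partner of CGA, rose from 70.2 to 169 (1.27, limma adjusted p = 4.9e-05), but near-identical copies of the gene can share its signal. GCM1, a driver of syncytiotrophoblast fusion, rose from 40.9 to 94.0 (1.20, adjusted p = 0.013) with its 2 highest values, 119 and 184, on the 14 and 72 h arrays. PAPPA fell from 294 to 130 (-1.18, adjusted p = 5.3e-05) and SDC1 from 5339 to 2569 (-1.06, adjusted p = 0.0038). HSD3B1, CYP19A1, INSL4, PSG3, PSG5 and LGALS13 were on no array well above background, and ERVW-1, ERVFRD-1 and PSG1 on 1 array each. Thus 6 of the 18 genes with a probe were on no array well above background, and 7 were so on all 19 arrays.

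In the families of the factors, 6 of 11 relatives were tested. CDX1 rose from 651 to 1132 (0.80, limma adjusted p = 0.00072) with a step between 565 at 12 h and 1142 at 14 h, and CDX4 fell (adjusted p = 0.012), with 3 of 3 early and 1 of 3 late arrays well above background. HAND2 and GATA1 were on no array well above background.

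Markers of other fates were counted on the same arrays. Of 10 primitive streak and mesoderm genes tested 3 rose, a share near the 30.9% of all probes, and none fell, with MESP1 from 104 to 360 (1.80, limma adjusted p = 2.2e-05) and KDR from 2364 to 5969 (1.34, adjusted p = 1.0e-05). Of 7 blood and endothelial genes 2 rose and 2 fell, of 6 endoderm genes 1 rose, of 4 surface ectoderm genes 1 fell and of 4 neural genes 2 fell. Beside these, 30.9% of all probes rose and 22.4% fell. Of 7 pluripotency genes none rose and 4 fell, beside the same 22.4% of all probes. Among them were ZFP42, from 44263 to 24810.0 (-0.84, limma adjusted p = 8.2e-05), and PRDM14, from 1189 to 778 (-0.61, adjusted p = 0.0060). Of 4 fibroblast genes 1 rose, COL1A2, from 4717 to 6083 (0.37, adjusted p = 0.00016), and COL3A1 and LUM were on 1 array each. The summed fibroblast signal, most of it from THY1, which hESCs also express, was 39277 to 42502 on the early arrays and 29892 to 47126 on the late ones, and its part in the results was not tested. The counts of rising genes in these lists rested on the scaling, as did those of all probes. By the spike-in RNA, 1485 of all 32113 probes tested were called above 0 and 11188 below. Beside that, 0 of the amnion genes rose and 3 fell, 1 and 3 of the trophectoderm and cytotrophoblast genes, 1 and 5 of the syncytiotrophoblast and extravillous genes, 0 and 3 of the BMP response genes and 2 and 2 of the mesoderm genes. With a block for each slide, 1 gene of all lists rose and 1 fell, beside 4.71% and 4.47% of all probes. In a bulk sample, fewer cells of a type and less RNA per cell cannot be told apart.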

How the data were processed

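The 19 arrays were deposited as Agilent Feature Extraction 10.10.1.1 output, in which the authors' processed signal is an intensity with the background subtracted, unscaled between arrays, with flags for spots well above background and for outliers. A table of intensities scaled per array, also deposited by the authors, was used as an alternative. Control and flagged spots were left out, spots of a probe averaged, and log2 intensity taken minus the 75th percentile of each array. RefSeq accessions matched 28174 of 50683 probes to 20503 symbols (GRCh38.p14). A gene was represented by its probe with the highest mean.

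Slopes on hours and cubic F tests used limma 3.58.1 (lmFit, eBayes, Benjamini-Hochberg; R 4.3.3) on the 32113 probes detected above background by 5 or more arrays. The error is the scatter of single arrays around the curve. On simulated data the fit recovered 149 of 200 probes changed by 0.02 log2 per hour (74.5%) among 158 calls, with 9 false calls. The simulated noise was independent between arrays, without differences between slides. It therefore says nothing about false calls from slide and time being tied together in these data. Windows were 3, 4 and 6 h (early), 24, 28 and 32 h (mid) and 60, 66 and 72 h (late). A window with no detected array gives a bound. It is nominal, since a spot without the flag can exceed the lowest signal well above background on its array. Python 3.11.15 with numpy 2.4.6 and pandas 2.3.3 made the tables.

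The genes and the lists were chosen with earlier results of these data known. The text names the 9 genes, the 2 called genes of each list with the largest difference each way, defining markers at or below background, and for each of the 9 the 3 genes of highest Pearson's r. One gene that this rule selects is not reported here. The mid window, the fits within slides and those without 66 h beyond leaving out single arrays were added after seeing the data. Precision is limited by the number of arrays.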

Additional observations from a re-analysis of the deposited data

How the results depend on the processing

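Of 263 refitted slopes of the 9 genes under the alternatives (array median, spike-in RNA, the deposited table, normexp with quantile normalization, no filter, a filter on all arrays, log2 hours, the slide as a block, 3 to 54 h, the mean of all probes, each array left out, and the slide as a block without 66 h, added after seeing the data), 215 kept their direction and their side of the threshold, 31 lost the call, 3 gained one and 14 changed sign, of which 1 (GATA3 from 3 to 54 h) also gained a call. Most of these refits left out a single array and share nearly all their data. Each gene had 1 probe, so the mean of all probes left the slopes unchanged. No filter and a filter on all arrays change only which probes are tested, so the slopes of the genes still tested were unchanged too. The total is thus a tally and does not measure how firm the calls are. No paired analysis was possible because there was only 1 array per time.

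The count of genes called above 0 (3) was 2 by the array median (KRT7 lost), 2 with the deposited table (CGA lost), 1 by spike-in RNA, 1 with the filter on all arrays, which left only KRT7 and TFAP2C to test, 0 with the slide as a block and 0 with the slide as a block without 66 h. The count below 0 (2) was 1 under normexp with quantile normalization, 1 with the deposited table, 1 with no filter, 1 with the filter on all arrays, and 0 with the slide as a block, with or without 66 h. Leaving out each array in turn gave 3 genes above 0 each time and 1 to 2 below. The cubic F test called 6 genes, and 3 with the slide as a block. It called 7 without 66 h, CDX2 being added.

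Signs changed only for genes whose slope was not called over all arrays. TFAP2A was -0.00068 by the array median, -0.0036 by spike-in RNA, -0.00051 under normexp, -0.0048 with the deposited table and -0.00014 from 3 to 54 h, and -0.00054 to 0.0068 on leaving out each array. GATA3 was -0.00087 by the array median, -0.0041 by spike-in RNA, -0.12 on log2 hours, -0.024 from 3 to 54 h and -0.0085 with the slide as a block without 66 h, and -0.0047 to 0.0093 on leaving out each array. ISL1 was -0.0085 to 0.00059 on leaving out each array. The cause was not tested. Fits with the slide as a block rest on changes within 3 slides. Detection limits CGA, HAND1, ISL1, TFAP2A and CDX2.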
